A study of Mus musculus with 6 samples.

Results

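The genes described here encode the giant proteins, the M-band proteins and the thin-filament length proteins of the sarcomere. They are 9 of the 23231 genes with counts in at least 1 library, chosen by name as *Ttn*, *Neb*, *Myom1*, *Myom2*, *Myom3*, *Mybpc1*, *Mybpc2*, *Lmod2* and *Lmod3*, and all 9 had counts in at least 2 libraries. Their RNA was compared between C2C12 cells that carried dCas9-KRAB alone (dCas9-KRAB cells, 3 libraries) and C2C12 cells that also carried 2 sgRNAs against Myog-En5, an enhancer of *Myog* (dCas9-KRAB-En5 cells, 3 libraries). C2C12 cells are mouse myoblasts of an established line, which form multinucleated myotubes when serum is lowered. dCas9-KRAB is a Cas9 that binds but does not cut DNA, fused to a domain that silences chromatin. Cells of both groups received lentivirus at an MOI (infectious virus per cell) of 100 and were selected in 2 μg/ml puromycin and held in 2% horse serum until day 5 of differentiation. All 6 libraries therefore carry the repressor. Both groups are selected pools labelled as a single cell line, and no nontargeting sgRNA is among the samples analysed here. The labels do not say whether the replicates were separate cultures, so the p-values measure the spread between these libraries, which may be technical.

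The sarcomere is the repeating contractile unit of striated muscle, in which thin actin filaments anchored at the Z-disc slide along thick myosin filaments centered on the M-band. Titin (*Ttn*) spans from the Z-disc to the M-band and acts as a molecular spring, and nebulin (*Neb*) lies along the thin filament and helps to set its length. The myomesins (*Myom1*, *Myom2*, *Myom3*) link thick filaments to each other and to titin at the M-band, and the myosin-binding proteins C (*Mybpc1* in slow fibers, *Mybpc2* in fast fibers) bind the thick filament and modulate the action of myosin. The leiomodins (*Lmod2*, *Lmod3*) nucleate actin and lengthen thin filaments at their pointed ends, where tropomodulins cap them. Myogenin, the product of *Myog*, is a transcription factor that binds E-boxes and drives the late steps of muscle differentiation.

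The values of a group are given throughout in the order of replicates 1 to 3. The depth was 40554323 to 73988425 counts per library in dCas9-KRAB cells and 31831093 to 40384720 in dCas9-KRAB-En5 cells. The library of dCas9-KRAB-En5 replicate 3 stood apart, with counts for 13991 genes beside 17084 to 19395 in the other libraries. The 7 of the 9 genes called lower below were also called without it. In that fit, however, 2134 genes were called lower and 1787 higher over the whole table, beside 671 and 219 with all 6 libraries. *Myog* had 43211, 68488 and 74845 counts in the dCas9-KRAB libraries, beside 12, 0 and 0 in the dCas9-KRAB-En5 libraries. Of 7 skeletal myotube markers analysed, 6 were at 10 TPM or more in all dCas9-KRAB libraries and none in all dCas9-KRAB-En5 libraries, and their summed TPM was 3033 to 8131 against 8.91 to 15.3. The 6 myoblast markers analysed had a sum of 191.4 to 527.1 TPM in dCas9-KRAB cells and 72.3 to 358.9 TPM in dCas9-KRAB-En5 cells, and 2 of the 5 tested were called lower. Among them *Myod1* and *Cdh15* were under 2 TPM in every dCas9-KRAB-En5 library, whereas *Sdc4* had 284.5, 349.7 and 43.0 TPM there, beside 37.9, 56.1 and 52.6 TPM in the dCas9-KRAB libraries. Of 11 macrophage markers analysed, 5 (*Csf1r*, *Cd68*, *Tyrobp*, *Fcgr1* and *Spi1*) were at 10 TPM or more in all 6 libraries, and the 11 had a sum of 2419 to 2535 TPM in dCas9-KRAB cells and 3425 to 3600 TPM in dCas9-KRAB-En5 cells, although C2C12 is a myoblast line. Of the 10 macrophage markers tested, 1 was called higher and 0 lower. *Adgre1* had 17.7, 7.62 and 9.09 TPM in the dCas9-KRAB libraries, beside 135.2, 121.9 and 29.6 TPM in the dCas9-KRAB-En5 libraries. *Fcgr1* went the other way, with 97.35, 161.1 and 154.4 TPM beside 53.6, 48.0 and 27.9 TPM. *C1qa* and *C1qb*, markers of mature tissue macrophages, were under 1 TPM in every library. The part of these markers in the results below was not tested. In bulk RNA, fewer cells of a type cannot be told apart from less RNA per cell.

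The sequences that the experiment turned on are the sites of the 2 sgRNAs, which lie 6715 and 6409 bases before the annotated start of *Myog* on chromosome 1 of GRCm38, at chr1:134283252-134283274 on the plus strand and chr1:134283558-134283580 on the minus strand. They are printed 5′ to 3′ with the PAM, the short motif that Cas9 requires beside its target, in capitals.
Myog-En5-sgRNA1: gaaggggttactgtcggcagAGG
Myog-En5-sgRNA2: gaccggaagattgaaccactGGG

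Neither sgRNA was designed against the 9 genes themselves, and their own upstream sequences are shown for the E-box, the motif that myogenin and MyoD bind. RefSeq (GRCm38.p6) gave upstream windows for 6 of the 9 genes, namely *Ttn*, *Myom1*, *Myom3*, *Mybpc1*, *Mybpc2* and *Lmod2*. The 250 bases before the start of transcription were searched for CANNTG, which reads the same on both strands. All 6 windows held at least 1 match, as did 66.2% of the 32851 promoters of the same length. The narrower form CAGCTG, which is a subset of CANNTG, was found in that of *Mybpc1* alone and in 13.0% of all promoters. The MEF2 consensus, a motif of AT-rich sequence bound by MEF2 factors that also reads the same on both strands and does not overlap the E-boxes in these windows, was found in those of *Ttn* and *Myom3* and in 2.92% of all promoters. A match is a description of the letters and not a bound site. Printed first are the windows of the longest gene (chr2:76982548-76982797, minus strand) and of a leiomodin that had no counts in dCas9-KRAB-En5 cells (chr6:24597521-24597770, plus strand). The last is that of the only myomesin with counts in every dCas9-KRAB-En5 library (chr17:71019307-71019556, plus strand). CANNTG and the MEF2 consensus are in capitals.
Ttn: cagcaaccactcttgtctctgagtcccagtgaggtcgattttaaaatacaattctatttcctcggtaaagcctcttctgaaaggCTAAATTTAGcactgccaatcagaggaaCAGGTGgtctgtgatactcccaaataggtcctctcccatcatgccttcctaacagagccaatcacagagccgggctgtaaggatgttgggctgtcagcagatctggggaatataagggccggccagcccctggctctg
Lmod2: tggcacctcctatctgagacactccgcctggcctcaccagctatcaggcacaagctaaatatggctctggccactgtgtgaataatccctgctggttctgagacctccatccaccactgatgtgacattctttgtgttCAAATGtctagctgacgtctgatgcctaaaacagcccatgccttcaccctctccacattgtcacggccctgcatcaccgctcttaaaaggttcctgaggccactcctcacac
Myom1: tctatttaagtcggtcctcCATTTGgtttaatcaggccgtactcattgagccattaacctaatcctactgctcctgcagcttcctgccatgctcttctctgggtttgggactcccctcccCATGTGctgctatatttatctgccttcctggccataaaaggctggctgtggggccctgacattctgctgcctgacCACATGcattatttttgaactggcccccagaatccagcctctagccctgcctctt

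The *Ttn* window held 1 E-box, which began 138 bases before the start of transcription, and a MEF2 consensus that began 166 bases before it. The *Lmod2* window held 1 E-box at 112 bases and no MEF2 consensus. The *Myom1* window held 3 E-boxes, at 231, 130 and 55 bases. Its RefSeq start lies inside the gene as GENCODE M21 draws it, which begins at base 71002633 of chromosome 17.

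In dCas9-KRAB cells the 9 genes spanned a wide range of levels per length. TPM values are counts over the total exon length of a gene, scaled to a sum of 1000000 in each library. Dividing by length does not make genes of unlike length fully comparable here. In the dCas9-KRAB libraries the median TPM of protein-coding genes was 3.82 to 4.03 at 1000 to 2500 exonic bases. It was 0.198 to 0.365 above 15000 exonic bases. The part of this pattern in the order of the 9 genes was not tested. By mean TPM the order was *Myom2*, *Lmod2*, *Lmod3*, *Myom1*, *Mybpc2*, *Myom3*, *Neb*, *Ttn* and *Mybpc1*. *Myom2* was above *Lmod2* in 3 of 3 libraries without overlap of their ranges, *Lmod3* above *Myom1*, and *Neb* above *Ttn*, while the ranges of all other neighbors in this order overlapped. The counts of *Ttn*, 1576 over the 3 libraries, were 0.799 times those of *Lmod2*, but its exon length was 59.1 times as long, so the mean TPM of *Ttn* was 0.0130 times that of *Lmod2*. In every dCas9-KRAB library, *Ttn* held between 4.72% and 6.37% of the counts of the 9 genes and between 0.266% and 0.338% of their TPM.

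*Ttn* (ENSMUSG00000051747; chr2:76703980-76982547, minus strand of GRCm38) has 116825 exonic bases in 345 exon blocks. There were 401, 658 and 517 counts in the dCas9-KRAB libraries, beside 19, 33 and 0 in the dCas9-KRAB-En5 libraries, or 0.126, 0.150 and 0.0984 TPM against 0.00764, 0.0166 and 0 TPM. Every dCas9-KRAB-En5 library was below every dCas9-KRAB library. The mean TPM fell from 0.125 ± 0.0257 (SD, n = 3) to 0.00808 ± 0.00830 (SD, n = 3), so that 6.48% of the level remained. The log2 fold change reached -4.45 (standard error 0.92, adjusted p = 0.00809, edgeR's quasi-likelihood test), past the cutoffs used to call a gene (adjusted p up to 0.01, log2 fold change of 1 or more in size). The call was lost without dCas9-KRAB replicate 1, 2 or 3 (adjusted p = 0.0506, 0.0319 and 0.0132, edgeR), without dCas9-KRAB-En5 replicate 1 (adjusted p = 0.0119, edgeR), and with total counts in place of TMM factors (adjusted p = 0.0274, edgeR), while the log2 fold change in these fits stayed between -4.65 and -4.23. It was also lost with limma on log2(TPM + 0.1) and log2(TPM + 1), where the differences were -1.05 (adjusted p = 0.0873, limma) and -0.16 (adjusted p = 0.297, limma).

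*Neb* (ENSMUSG00000026950; chr2:52136647-52378474, minus strand, 26582 exonic bases in 166 blocks) had 354, 979 and 401 counts in the dCas9-KRAB libraries, beside 3, 7 and 0 in the dCas9-KRAB-En5 libraries. In TPM this was 0.489, 0.981 and 0.336 against 0.00531, 0.0155 and 0, again without overlap. Of the mean level 1.15% remained, and the log2 fold change reached -6.80 (standard error 0.89, adjusted p = 0.000556, edgeR). Without dCas9-KRAB replicate 1 the adjusted p was 0.0101 (edgeR), just outside the cutoff. Pooled over libraries and scaled for depth, the counts were 109.9 times as high in dCas9-KRAB cells (95% exact interval 59.6 to 229.5), and those of *Ttn* 19.2 times as high (14.6 to 25.8). These intervals cover counting error only. The TPM ratio of *Neb* to *Ttn* was 3.41 to 6.54 in the dCas9-KRAB libraries and 0.694 and 0.933 in dCas9-KRAB-En5 replicates 1 and 2.

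**Figure D1:**
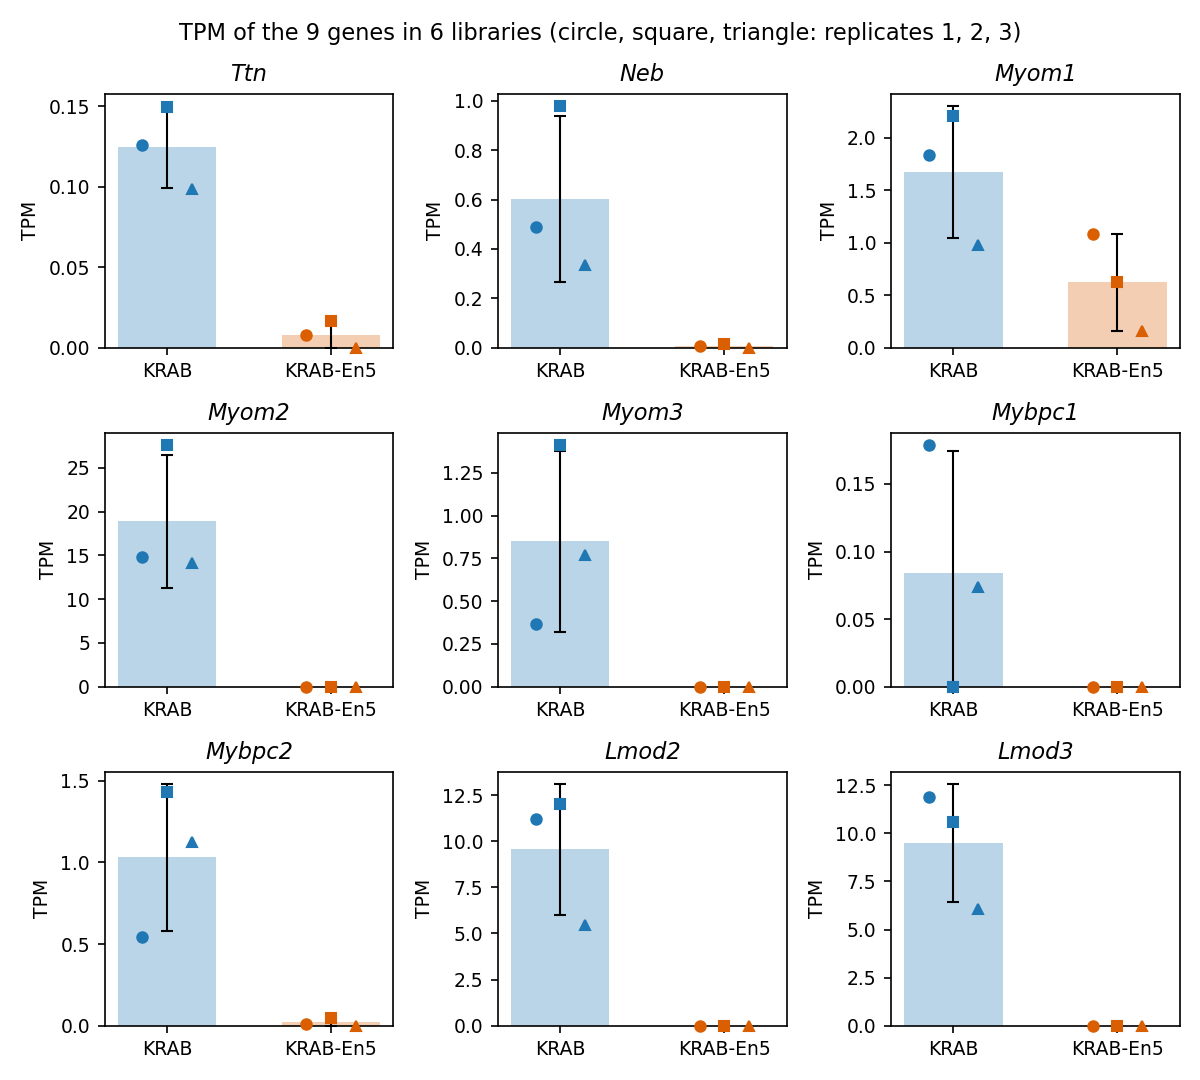
TPM of each of the 9 genes in the 3 dCas9-KRAB and the 3 dCas9-KRAB-En5 libraries, with a separate linear axis from 0 in each panel. Bars are means, error bars are SD (n = 3, drawn down to 0 at most) and symbols are replicates; only *Myom1* kept a visible level, 0.159 to 1.08 TPM, in all dCas9-KRAB-En5 libraries.

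The 3 myomesins of the M-band differed from each other. *Myom2* (ENSMUSG00000031461; chr8:15057653-15133541, plus strand, 8853 exonic bases) was the most abundant of the 9 genes, with 3569, 9157 and 5618 counts in the dCas9-KRAB libraries, beside 3, 1 and 0 in the dCas9-KRAB-En5 libraries. This corresponded to 14.9, 27.6 and 14.2 TPM against 0.0160, 0.00666 and 0 TPM. The groups were far apart relative to the SD of 7.58 TPM in dCas9-KRAB cells, 0.0400% of the mean remained, and the pooled ratio of depth-scaled counts was 2905 (95% exact interval 1135 to 10660). The log2 fold change reached -11.41 (standard error 0.79, adjusted p = 1.82e-05, edgeR).

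*Myom3* (ENSMUSG00000037139; chr4:135759715-135815564, plus strand, 6038 exonic bases) had 60, 320 and 209 counts in the dCas9-KRAB libraries and none in the dCas9-KRAB-En5 libraries. Its TPM was 0.366, 1.42 and 0.773 in dCas9-KRAB replicates 1 to 3, a 3.87-fold range within the group. Against a floor of 3 counts in each dCas9-KRAB-En5 library, *Myom3* was at least 34.9-fold lower. It passed the cutoffs (adjusted p = 0.00146, edgeR), with a fitted log2 fold change of -10.22 that depends on the prior count and is no bound. Without dCas9-KRAB replicate 1 or 2 the adjusted p was 0.0141 and 0.0107 (edgeR).

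*Myom1* (ENSMUSG00000024049; chr17:71002633-71126856, plus strand, 10459 exonic bases) was the exception among the genes tested. It had 522, 865 and 457 counts in the dCas9-KRAB libraries, beside 240, 111 and 38 in the dCas9-KRAB-En5 libraries, or 1.84, 2.21 and 0.976 TPM against 1.08, 0.626 and 0.159 TPM. The groups overlapped, since dCas9-KRAB-En5 replicate 1 lay above dCas9-KRAB replicate 3 (exact permutation test, two-sided, p = 0.2). Within each of the 3 pairs of libraries with the same replicate number, however, *Myom1* was lower in the dCas9-KRAB-En5 library. The log2 fold change of -1.76 (standard error 0.58) did not pass the cutoffs (adjusted p = 0.0574, edgeR; 0.0153 when blocked on replicate number), and 37.2% of the mean TPM remained. The TPM ratio of *Myom2* to *Myom1* was 8.08 to 14.5 in dCas9-KRAB libraries and 0.0148 and 0.0106 in dCas9-KRAB-En5 replicates 1 and 2. *Myom1* shares 207 exonic bases, 1.98% of its exon length, with *Myl12a*, a regulatory light chain gene of nonmuscle myosin on the opposite strand. *Myl12a* had 98.8 to 136.8 TPM in dCas9-KRAB libraries and 17.0 to 31.7 TPM in dCas9-KRAB-En5 libraries, and whether the counting used strand is not given in the sources used here, so reads of the 2 genes over the shared bases cannot be told apart. The share of such reads in the *Myom1* counts was not tested.

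The 2 myosin-binding proteins C had low levels. *Mybpc2* (ENSMUSG00000038670; chr7:44501699-44524656, minus strand, 3611 exonic bases) had 53, 193 and 182 counts in the dCas9-KRAB libraries, beside 1, 3 and 0 in the dCas9-KRAB-En5 libraries. Its mean TPM was 1.03 ± 0.451 (SD, n = 3) against 0.0207 ± 0.0254 (SD, n = 3), with no overlap between the groups. The pooled ratio of depth-scaled counts was 67.8 (95% exact interval 26.3 to 249.9) and the log2 fold change -5.96 (standard error 1.05, adjusted p = 0.00375, edgeR). This call was lost whichever dCas9-KRAB library was left out (adjusted p = 0.0159 to 0.0242, edgeR) and without dCas9-KRAB-En5 replicate 1 (adjusted p = 0.0116, edgeR). Of its 50-base stretches, 2.69% also occur in transcripts of other annotated genes, and 192 of its exonic bases lie opposite *Gm44646*, which had 11 counts in dCas9-KRAB replicate 3 and 0 elsewhere.

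*Mybpc1* (ENSMUSG00000020061; chr10:88518279-88605152, minus strand, 4527 exonic bases) had 22, 0 and 15 counts in the dCas9-KRAB libraries and no counts in the other group. It did not pass the low-count filter and was not tested by edgeR in the comparison reported here, and since dCas9-KRAB replicate 2 also had 0 counts, no fold is given. The mean TPM in dCas9-KRAB cells was 0.0844 ± 0.0900 (SD, n = 3), with an SD as large as the mean (exact permutation test, two-sided, p = 0.4). Without the filter, its adjusted p was 0.0633 (edgeR), and with DESeq2 it was 0.0711. A difference in *Mybpc1* was not detected with these libraries.

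Both leiomodins had no counts in any dCas9-KRAB-En5 library. *Lmod2* (ENSMUSG00000029683; chr6:24597762-24605414, plus strand, 1976 exonic bases in 3 blocks) had 601, 888 and 484 counts in the dCas9-KRAB libraries, or 11.2, 12.0 and 5.47 TPM. *Lmod3* (ENSMUSG00000044086; chr6:97238534-97252759, minus strand, 2215 exonic bases in 3 blocks) had 716, 878 and 601 counts, or 11.9, 10.6 and 6.06 TPM. The 2 genes kept nearly the same level as each other, with a TPM ratio of *Lmod2* to *Lmod3* of 0.941, 1.13 and 0.903 in dCas9-KRAB replicates 1 to 3. Against 3 counts in each dCas9-KRAB-En5 library, *Lmod2* was at least 131.1-fold lower and *Lmod3* at least 147.5-fold lower. That floor was highest in dCas9-KRAB-En5 replicate 2, at 0.0895 TPM for *Lmod2* and 0.0799 TPM for *Lmod3*. Both passed the cutoffs (adjusted p = 0.000126 for *Lmod2* and 0.000104 for *Lmod3*, edgeR). No other annotated gene overlaps either leiomodin, and none of their 50-base stretches occurs in transcripts of other genes.

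Of the 9 genes, 8 were tested and 7 were called lower in dCas9-KRAB-En5 cells. The same rule called 4.67% of all 14378 tested genes lower. These 7 genes passed the low-count filter through the dCas9-KRAB libraries alone, so a call of higher was not open to them. All dCas9-KRAB-En5 libraries lay below all dCas9-KRAB libraries in TPM in these 7 genes (p = 0.1 for each in a two-sided exact permutation test, the lowest p possible with 3 against 3), as they did in 19.7% of the whole table. The median log2 fold change of the 8 genes was -8.51, beside 0.08 over all genes tested. That median lies between the values of *Neb* and *Myom3*, and the value of *Myom3* depends on the prior count. Their calls were unequal in strength. *Myom2*, *Lmod2* and *Lmod3* passed the cutoffs in all 16 alternative fits, *Neb* in 14, *Myom3* in 13, *Mybpc2* in 11 and *Ttn* in 9. No alternative turned the direction of any of the 8. In the 7 called lower, however, the groups did not overlap, so leaving out a library could not have turned them. Their kept direction is therefore no added support. Leaving out dCas9-KRAB replicate 1 reduced the number of the 9 genes called to 3 and leaving out dCas9-KRAB replicate 2 to 4, beside 216 and 305 genes called lower over the whole table in those fits.

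**Figure D2:**
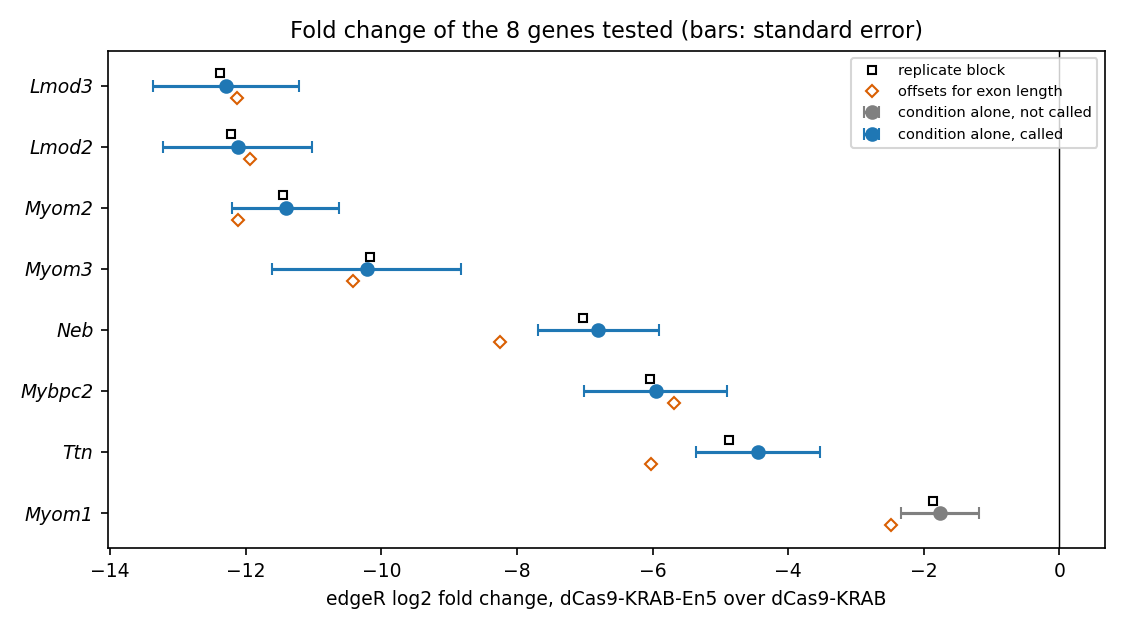
Log2 fold change of dCas9-KRAB-En5 over dCas9-KRAB for the 8 genes tested by edgeR, with standard errors as bars, and the estimates with the replicate number as a block (squares) and with offsets for exon length (diamonds). *Myom1*, at -1.76, is the gene nearest 0. *Ttn* and *Neb* move farthest with the length offsets, to -6.03 and -8.24, and the offsets are the same for every gene of a length class. Values near -10 and beyond rest on counts at or near 0.

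Gene length itself divided the libraries, which bears on *Ttn* and *Neb* because their total exon lengths are among the longest of any gene. Among 376 protein-coding genes with more than 15000 exonic bases, the median TPM was 0.319, 0.365 and 0.198 in the dCas9-KRAB libraries, beside 1.53, 1.53 and 0.154 in the dCas9-KRAB-En5 libraries. Long genes were thus higher in dCas9-KRAB-En5 replicates 1 and 2 than in every dCas9-KRAB library, and dCas9-KRAB-En5 replicate 3 stood with the dCas9-KRAB libraries. Genes of this length held 1.3% and 1.49% of the counts in dCas9-KRAB-En5 replicates 1 and 2 and between 0.321% and 0.521% in the other 4 libraries. The median log2 fold change rose with length, from -0.51 in genes of up to 1000 exonic bases to 1.44 in the 314 tested genes of over 15000 bases. *Neb* and *Ttn* went the other way from most genes of their length: they ranked the 8th and the 11th lowest of the 314, and 11 of the 314 were called lower. Other genes called among the 10 lowest included *Adgrl3*, the lowest of all (log2 fold change -9.225), and *Zfp704* (-5.925). *Dtna*, which encodes a dystrobrevin of the membrane complex of dystrophin, was also called. So were *Sorbs2*, a Z-disc adaptor, and *Lama2*, the laminin chain of the muscle basement membrane. All of these were chosen for mention after their values were seen.

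**Figure D3:**
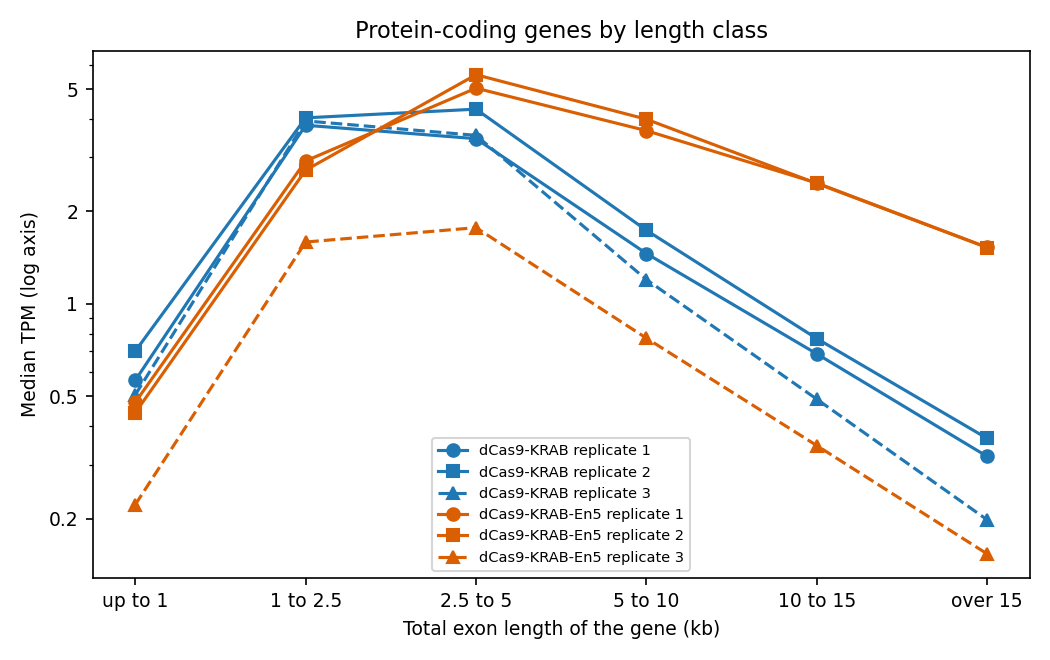
Median TPM (log axis) of protein-coding genes in 6 classes of total exon length, with a line for each library. The lines of dCas9-KRAB-En5 replicates 1 and 2 stay highest in the class of over 15 kb, at 1.53 TPM, while those of the 3 dCas9-KRAB libraries and of dCas9-KRAB-En5 replicate 3 fall to between 0.154 and 0.365 TPM.

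With offsets that set the median of each of 50 length classes equal between libraries, an alternative chosen after the data were seen, the log2 fold change reached -6.03 for *Ttn* (adjusted p = 0.000721, edgeR) and -8.24 for *Neb* (adjusted p = 0.000106, edgeR). *Myom1* passed the cutoffs in that fit, at -2.48 (adjusted p = 0.00591, edgeR), so that 8 of the 9 genes were called. Over the whole table, 650 genes were called lower and 260 higher with these offsets. The short genes moved little, *Lmod2* to -11.94 and *Lmod3* to -12.13. The class of *Ttn* and *Neb* in that fit held 287 genes of 15378 to 123179 exonic bases. All of them received the same offsets, so the move of *Ttn* and *Neb* follows from the median of their class by construction. The call of *Myom1* thus depended on how length was treated. What made length differ between the libraries was not tested.

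The genes related to these 9 were taken in 4 lists. The lists were chosen with earlier results of these data known. Of 43 listed genes, 38 had counts in some library and 34 were tested. Of these 34, 22 were called lower and none higher, with a median log2 fold change of -7.28. The same rule called 4.67% of all 14378 tested genes lower. When single libraries were left out, 15 to 23 of the listed genes were called lower, beside 216 to 2134 over the whole table. *Nebl*, *Lmod1*, *Tmod2*, *Cmya5* and *Myot* were not analysed here, and *Igfn1*, *Mybphl*, *Tmod4* and *Capn3* had too few counts to be tested.

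Among paralogues of the 9 genes, 3 of 6 tested were called lower, and the median log2 fold change was -4.62. *Mybph*, the myosin-binding protein H gene and a relative of *Mybpc1* and *Mybpc2*, had 312.1, 1110 and 794.3 TPM in the dCas9-KRAB libraries, beside 0.122, 0.0253 and 0 TPM in the dCas9-KRAB-En5 libraries. Its level in dCas9-KRAB cells was far above the 1.03 TPM of *Mybpc2*. *Obsl1*, whose product links titin and myomesin at the M-band, fell from a mean of 8.0 to 0.0660 TPM, and *Nrap*, which encodes a nebulin-related protein of forming myofibrils, from 1.74 to 0.0129 TPM. *Speg*, a muscle kinase gene with titin-like domains, was 3.17 TPM against 2.66 TPM (log2 fold change -0.37, adjusted p = 0.611, edgeR), and *Lasp1*, the short nebulin relative found in most cells, was 37.2 TPM against 87.5 TPM (log2 fold change 1.01, adjusted p = 0.202, edgeR). Neither passed the test, and nor did *Mybpc3*, the cardiac myosin-binding protein C gene, which was under 0.4 TPM in all 6 libraries.

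In the list of thin-filament ends and length, 5 of 10 tested genes were called lower, with a median of -1.59 (log2). *Klhl40* and *Klhl41*, kelch proteins that help to stabilize nebulin, fell from 28.2 to 0.108 TPM and from 51.1 to 1.52 TPM. *Tmod1*, the tropomodulin that caps pointed ends in striated muscle, fell from 2.69 to 0.174 TPM, with a call close to the cutoff (adjusted p = 0.00850, edgeR). *Pdlim3*, a partner of alpha-actinin, fell from 31.5 to 0.00611 TPM, and *Cfl2*, the muscle cofilin, from 32.1 to 6.87 TPM, again close to the cutoff (adjusted p = 0.00976, and 0.0136 with length offsets, edgeR). The genes of broadly expressed actin regulators did not pass: *Tmod3*, *Capza1*, *Capza2*, *Capzb* and *Wdr1* had log2 fold changes between -0.79 and 1.04. *Capzb*, a subunit of the barbed-end capping protein, was 147.5 TPM against 216.3 TPM.

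Of 14 tested partners of titin and the M-band, 12 were called lower, with a median of -9.48 (log2). The values at that median, of *Mypn* and *Trim54*, rest on counts at or near 0 in dCas9-KRAB-En5 cells. *Tcap*, which encodes the Z-disc cap of titin, had 6.92, 16.9 and 14.6 TPM in the dCas9-KRAB libraries, beside 0.0996, 0.124 and 0 TPM in the dCas9-KRAB-En5 libraries. *Ankrd2* and *Ankrd1*, ankyrin-repeat proteins that bind titin, fell from 406.0 to 0.0553 TPM and from 54.7 to 0.888 TPM. *Trim63*, *Trim55* and *Trim54*, the MuRF ubiquitin ligases of the sarcomere, fell from 7.01, 6.03 and 18.1 TPM to 0.0277, 0 and 0.0203 TPM. *Ckm*, the M-band creatine kinase, fell from 78.6 to 0.0648 TPM, *Actn2*, the alpha-actinin of the Z-disc, from 3.10 to 0.0187 TPM, and *Csrp3*, a Z-disc LIM protein, from 45.1 to 0.0294 TPM. *Fhl1*, *Smpx* and *Mypn* were also called. *Fhl2*, a LIM protein that binds titin, was 6.80 TPM against 1.22 TPM and did not pass (adjusted p = 0.0168, edgeR), although it did with the replicate number as a block (log2 fold change -2.57, adjusted p = 0.00561, edgeR). *Ankrd23*, which was under 1 TPM in every library, did not pass either.

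For the folding of the thick filament, 2 of 4 genes were called lower, with a median of -4.52 (log2). *Unc45b* and *Smyd1*, the muscle myosin chaperone and its partner methyltransferase, fell from 7.82 to 0.0105 TPM and from 10.2 to 0.0147 TPM. The general chaperones *Hsp90aa1* and *Hsp90ab1*, with which they work, had log2 fold changes of 1.15 and 0.52 and did not pass (adjusted p = 0.168 and 0.483, edgeR).

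**Figure D4:**
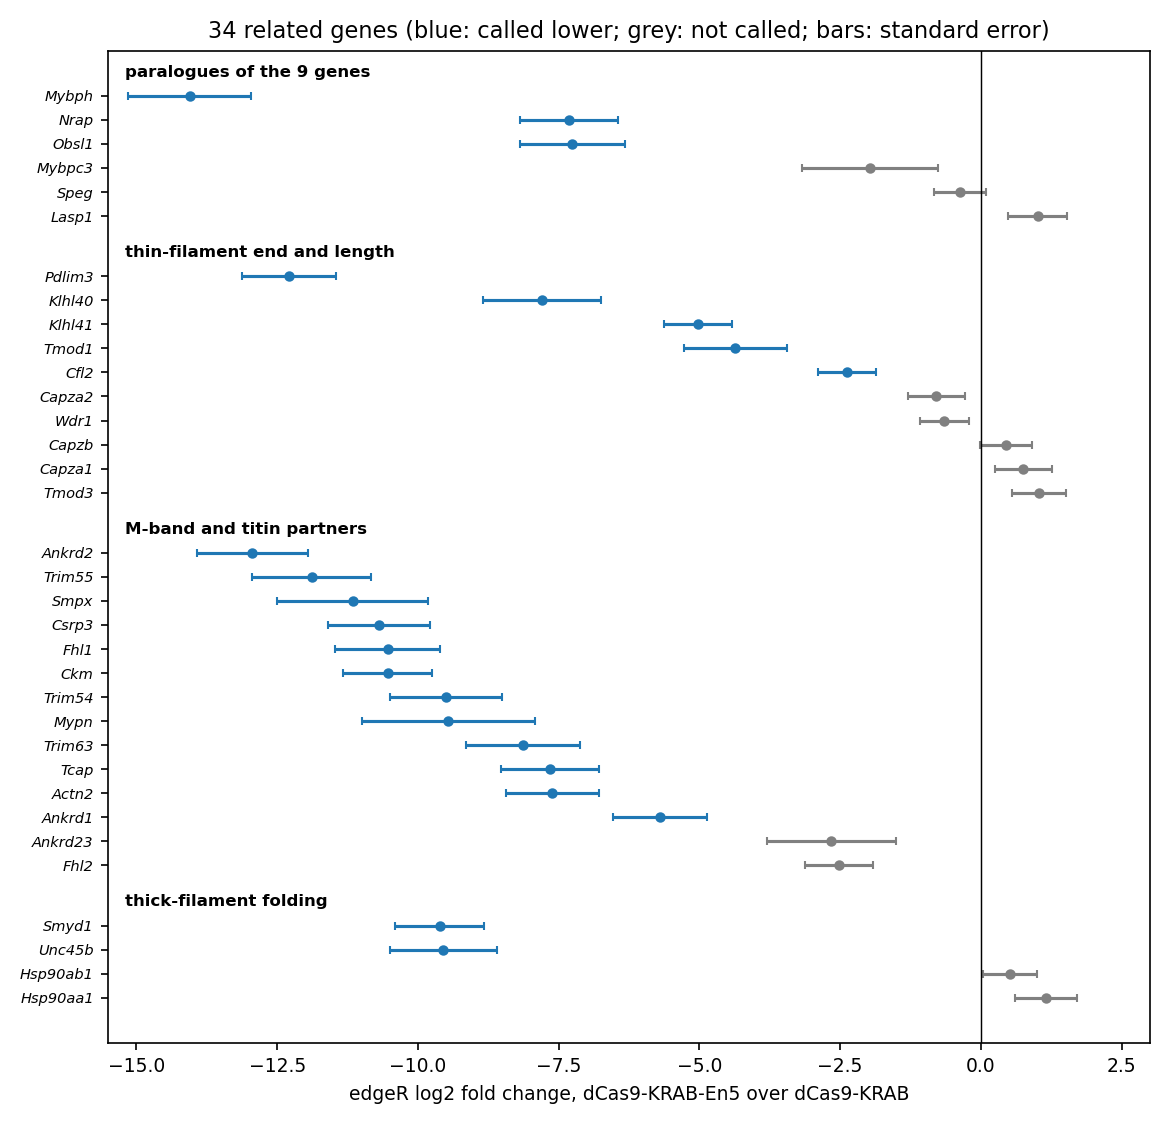
Log2 fold change of dCas9-KRAB-En5 over dCas9-KRAB (edgeR, bars are standard errors) for the 34 tested related genes in 4 lists. The 22 genes called lower lie between -14.05 and -2.38, and the 12 not called lie between -2.66 and 1.15.

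Across the 9 genes and the 22 related genes called lower, longer genes tended to have lower TPM in dCas9-KRAB cells (Spearman's rho -0.57 over 31 genes, and -0.46 over the 22 related genes alone). This is a correlation across genes of the same 3 libraries, which share the length pattern described above, and genes are not independent replicates. TPM is counts over exon length, so length enters both quantities and favors a negative rho by construction. The 22 related genes were also picked by their call in these same data. The rho therefore only describes these genes, and no relation of length and level can be drawn from it.

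The 5 genes whose log2(TPM + 1) profile over the 6 libraries was nearest to that of *Ttn* by Euclidean distance were *Duxbl3*, *Trp63*, *Gria1*, *Igsf11* and *Pde3b*, at distances of 0.0339 to 0.0636. All 5 had a mean TPM between 0.122 and 0.132 in dCas9-KRAB cells and up to 0.0194 in dCas9-KRAB-En5 cells, and none of them was called. None of the other 8 genes was among them. *Ttn* itself was at 0.150 TPM or less in every library, so small distances mainly mark genes at the same low level. Whether these genes share regulation with *Ttn* was not tested.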

How the data were processed

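Per the labels, poly(A) RNA of 6 C2C12 samples was sequenced. Per the submitters' processing notes and the methods, the authors aligned the reads with HISAT2 2.2.1 to GRCm38, used featureCounts to count reads in genes, and deposited raw counts and TPM for each library. The deposited TPM are counts over gene length, with a sum of 1000000 in each library. The annotation release and strand setting are not given in the sources used here. Exon lengths and coordinates came from GENCODE M21 (GRCm38). Lengths implied by counts and TPM matched them within 1% for each of the 9 genes. Genes absent from a library were taken as 0. Of 23231 genes, 23155 were matched to a symbol.

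Counts were compared with edgeR 4.0.16 in R 4.3.3 (filterByExpr with a minimum count of 10 and total of 15, TMM, glmQLFit and glmQLFTest with condition alone, Benjamini-Hochberg adjustment), as dCas9-KRAB-En5 over dCas9-KRAB. Calls required an adjusted p up to 0.01 and a log2 fold change of 1 or more in size. The standard error is the fold change over the root of its F statistic. The study's own tool, DESeq2 1.42.0, and limma 3.58.1 were alternatives. Single values were compared with exact permutation tests over the libraries. Folds against libraries without counts were set against 3 counts per library, and intervals of pooled ratios are exact (Clopper-Pearson, 95%). Both cover counting error only. Replicate numbers come from the labels. Same-numbered libraries of the 2 groups deviated together across genes (r = 0.262, 0.214 and 0.29, against -0.34 to -0.0508 for other pairs), so the replicate number was also fitted as a block. Deviations from the mean of the 3 libraries of a group sum to 0 for each gene. The negative r of other pairs is therefore not an independent contrast to the positive r of same-numbered pairs. The fit was tested on simulated counts.

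The 9 genes, the lists of related genes and the cell type markers were chosen with earlier results of these data known, and 1 related gene is not reported here. The genes named are the 9, *Myog*, the related genes that were called, those not called with a mean of at least 1 TPM in a group, and the 5 genes nearest to *Ttn* in profile. Others are named as chosen after their values were seen or because their counts touch those of a named gene.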

Additional observations from a re-analysis of the deposited data

How the results depend on the processing

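The direction of all 8 tested genes was kept in each of 16 alternatives. For the 7 called lower, whose groups did not overlap, this outcome was nearly fixed by the counts. Of the 9 genes, 7 were called lower with DESeq2, other size factors, upper quartiles, other filters and the replicate block, which changed no call among them and added *Fhl2* among the related genes, 6 with total counts, 3 and 6 with limma on log2(TPM + 1) and log2(TPM + 0.1), and 8 with length offsets. When single libraries were left out this number was 3 to 7, and that of related genes called lower was 15 to 23. Over all genes, 671 were lower and 219 higher. The count of lower genes was 1423 with DESeq2, 1194 with no filter, 650 with length offsets (260 higher) and 216 to 2134 when single libraries were left out. The count of higher genes was 967 with DESeq2, 70 with total counts (516 lower), 1004 with no filter, 567 with the replicate block (976 lower), 32 and 66 with limma on log2(TPM + 1) (482 lower) and log2(TPM + 0.1) (643 lower), and 6 to 1787 when single libraries were left out. The highest of these came without dCas9-KRAB-En5 replicate 3. The cause was not tested. On the log2(TPM + 1) scale the changes of low genes are understated, -0.16 for *Ttn* and -0.65 for *Neb*. Low counts limit *Mybpc1*, which had at most 22 in any library, and the folds of *Myom3*, *Lmod2* and *Lmod3*, which are lower bounds.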
